A study of Mus musculus with 17 samples.

Results

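The mouse mitochondrial chromosome carries its own small set of genes, and their RNAs were followed in hearts of mice with and without a transplanted tumour. Members were all genes of the deposited expression table whose symbol starts with mt-, which gave 15 of 28640 genes, 13 for messenger RNAs and 2 for ribosomal RNAs (mt-Rnr1 and mt-Rnr2). No gene with this prefix was a transfer RNA. The mitochondrial transfer RNAs, of which the GENCODE M21 annotation lists 22, were not analysed here. RNA from mouse hearts was sequenced in 3 groups. The control group (5 libraries, genotype CON) came from mice without tumours. The tumour group (6 libraries, genotype Model) came from mice with implants of CT-26, a mouse colon carcinoma line that grows as a graft. The tumour_swim group (6 libraries, genotype ModelSwimming) came from CT-26 mice that were also made to swim. The study's text puts the question as whether aerobic exercise acts on the cardiac dysfunction that comes with tumour growth. Tumour-free swimming mice were not among the samples, so swimming can be read only on top of a tumour. Not given in the sources used here are the strain, sex and age of the mice and the length of the exercise. Nothing in the labels says that the libraries of a group came from separate mice, and a p-value therefore reflects how these samples spread, part of which may be technical.

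As background, the mitochondrial chromosome is copied into long transcripts from both strands. Excision of the transfer RNAs that lie between many of the genes releases most of the messenger and ribosomal RNAs. mt-Nd4l with mt-Nd4, mt-Atp8 with mt-Atp6 and mt-Atp6 with mt-Co3 overlap on the same strand, so no transfer RNA lies between them. Each of these genes still has its own value here. The messenger RNAs encode subunits of the respiratory complexes I, III and IV and of the ATP synthase, all of which also need subunits made from nuclear genes. The ribosomal RNAs form the core of the mitochondrial ribosome, and heart muscle, which is dense in mitochondria, is among the tissues richest in these transcripts.

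Levels are given in FPKM, reads per kilobase of a gene's exons in every 1e6 assigned reads. Depth ranged from 13.3 to 19.7 M reads per library (M, 1e6), so even the least abundant member, mt-Atp8, rested on 29 to 393 reads, and mt-Co1 on 1148403 to 2549718. 1 library stood apart for the members: in tumour_swim 1 they took 46.3% of all assigned reads, against 16.9% to 30.8% in the other 16. The same library had the fewest genes at 0.5 FPKM or more, 10773, where the others had 11852 to 13605. Tumour_swim 1, control 1 and control 4 also shared a tilt by gene length relative to the rest of their groups. Across genes outside the mitochondrial chromosome, exon length and a library's deviation from the rest of its group had Spearman correlations of -0.55, -0.52 and -0.57 in these libraries, 0.56 and 0.58 in control 2 and control 3, and -0.25 to 0.47 in the remaining 12. Genes are not independent replicates, so these correlations only describe the libraries. Each is relative to the other libraries of its group. They therefore cannot say whether control 1 and control 4 or control 2 and control 3 are the unusual controls. Results are given with and without tumour_swim 1, and without tumour_swim 1, control 1 and control 4 together where that changes a call.

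These transcripts were among the most abundant of the heart. mt-Co1, which encodes the catalytic core subunit of cytochrome c oxidase (complex IV), had the highest FPKM of all genes in all 17 libraries, with a median of 55428 FPKM. Next came mt-Cytb, the cytochrome b of complex III, at 29769, and mt-Nd1, a membrane subunit of complex I, at 26198 FPKM. The complex I subunit genes mt-Nd2, mt-Nd4, mt-Nd5 and mt-Nd6 followed, with medians of 16656, 12251, 9827 and 9786 FPKM. Between 7 and 10 of the 10 highest FPKM values of a library belonged to members. The 2 ribosomal RNAs stood lower, at 5011 FPKM for mt-Rnr2, the large-subunit RNA, and 3093 for mt-Rnr1, the small-subunit RNA. The genes for ATP synthase subunit 6 and for the other cytochrome c oxidase subunits, mt-Atp6, mt-Co2 and mt-Co3, had medians of 2245, 2089 and 1342 FPKM. The short complex I genes mt-Nd4l and mt-Nd3 had 820.0 and 91.3 FPKM, and mt-Atp8, for a small ATP synthase subunit, had 36.7 FPKM. The ranges of some neighbours in this order overlapped over the 17 libraries: mt-Cytb with mt-Nd1, mt-Nd5 with mt-Nd6, and mt-Atp6 with mt-Co2. Such ranges ignore that both genes were measured in the same libraries. By rank among all genes of a library, mt-Cytb had a median of 2 and mt-Nd1 of 3. For mt-Nd5 and mt-Nd6 it was 7 each, and for mt-Atp6 and mt-Co2 it was 14 and 19.

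**Figure D1:**
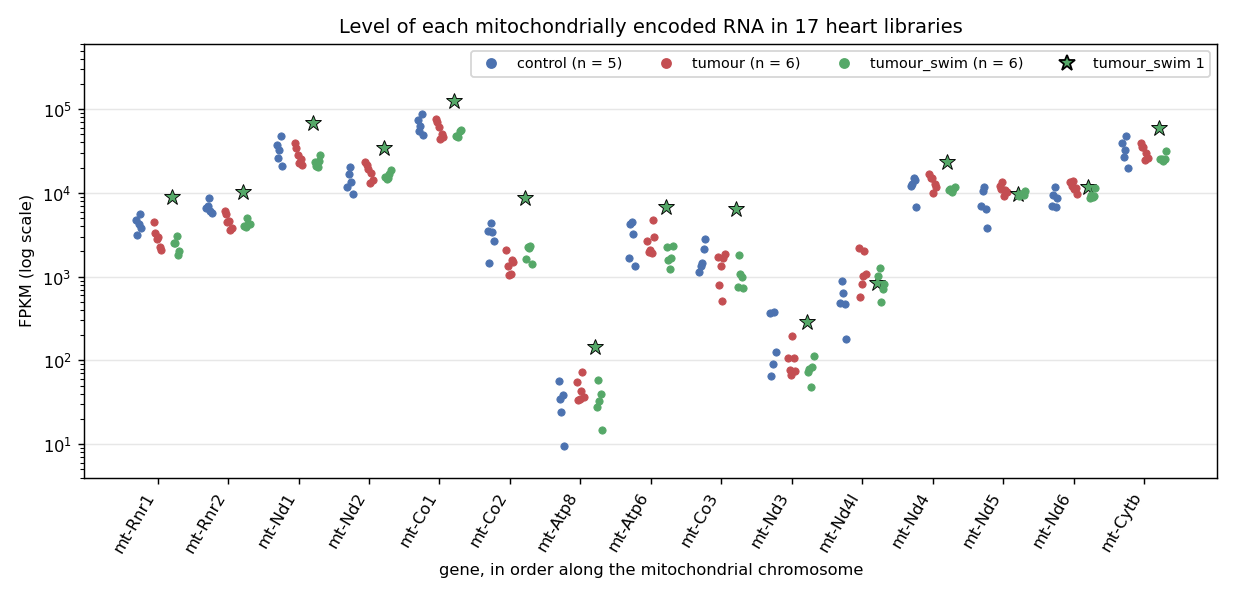
FPKM of each mitochondrially encoded RNA (log axis) in the 17 libraries, with genes in their order along the mitochondrial chromosome and each point a library. Tumour_swim 1, drawn as a star, lies above the other tumour_swim libraries for every gene except mt-Nd4l and mt-Nd5, and the levels span from 9.46 FPKM for mt-Atp8 in control 5 to 123767 FPKM for mt-Co1 in tumour_swim 1.

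Of the 6 members with the lowest median levels, 5 have nearly their whole sequence in annotated nuclear genes as well. For mt-Atp8 no such match was found, and nuclear sequence outside annotated transcripts was not searched. All 15 members lay at the positions that GENCODE M21 gives on GRCm38, and each was cut into overlapping windows of 100 bases that were looked for in annotated nuclear transcripts. Unchanged windows made up 99.9% of mt-Co3, 99.5% of mt-Co2, 99.5% of mt-Atp6, 98.5% of mt-Nd4l, 97.6% of mt-Nd3, 60.8% of mt-Nd4, 30.8% of mt-Co1 and 3.19% of mt-Nd2. mt-Cytb, mt-Nd1, mt-Nd5, mt-Nd6, mt-Atp8, mt-Rnr1 and mt-Rnr2 had none. Most of these windows lay in a row of unprocessed pseudogenes on the minus strand of chromosome 1 that are annotated as genes of their own and had FPKM values of their own. Reads from such windows carry no base that tells the mitochondrial gene from its copy, so the level of either depends on how shared reads were assigned, a step not given in the sources used here. Gm28438 and mt-Nd3 differ at a single base, T3C, counted from 1 at the gene's 5′ end with the mitochondrial base first; the first 60 bases of both are shown because they are the closest pair that can still be told apart, with the differing base in capitals (chrM:9459-9518, plus strand, and chr1:24613060-24613119, minus strand, GRCm38, from GENCODE).
mt-Nd3: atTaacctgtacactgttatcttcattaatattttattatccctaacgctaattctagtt
Gm28438: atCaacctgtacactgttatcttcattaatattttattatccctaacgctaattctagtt
mt-Nd4l, the only member called between groups when all libraries were fitted, is shown whole (chrM:9877-10173, plus strand); capitals mark the 7 bases it shares with the start of mt-Nd4 on the same strand. The first 60 bases of its copy Gm10222 (chr1:24612641-24612700, minus strand) follow with no capitals, since over all 294 bases of the copy no base differs from mt-Nd4l.
mt-Nd4l: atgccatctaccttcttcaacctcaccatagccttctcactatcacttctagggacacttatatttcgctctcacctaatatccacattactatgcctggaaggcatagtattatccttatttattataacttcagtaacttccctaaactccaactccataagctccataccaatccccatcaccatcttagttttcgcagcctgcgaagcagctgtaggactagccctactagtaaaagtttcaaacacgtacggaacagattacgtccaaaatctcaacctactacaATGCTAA
Gm10222: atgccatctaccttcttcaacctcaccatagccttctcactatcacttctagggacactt
mt-Co1 could be told from its copy Gm29216 at only 6 of 492 aligned bases, all of them inside the stretch shown (chrM:6381-6440, plus strand, and chr1:24616138-24616197, minus strand), with the differing bases T1056A, C1057T, A1059G, A1060G, C1062A and A1066T in capitals.
mt-Co1: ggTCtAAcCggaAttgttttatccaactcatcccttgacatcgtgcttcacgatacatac
Gm29216: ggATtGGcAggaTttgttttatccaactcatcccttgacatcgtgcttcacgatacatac
mt-Atp8 had no shared window, yet had the lowest level; it is shown whole (chrM:7766-7969, plus strand) because its last 43 bases, in capitals, are also the start of mt-Atp6.
mt-Atp8: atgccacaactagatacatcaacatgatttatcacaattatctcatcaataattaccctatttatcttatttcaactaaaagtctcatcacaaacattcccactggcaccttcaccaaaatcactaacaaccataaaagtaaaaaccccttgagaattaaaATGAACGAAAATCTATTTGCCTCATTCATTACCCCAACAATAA

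The part of a pair's reads that the copy took differed widely between genes. Gm28438 held 41.3% to 91.9%, median 85.0% over the 17 libraries, of the reads assigned to it and mt-Nd3 together. The share was 21.7% to 49.7%, median 40.5% for Gm28661 beside mt-Co2, 17.1% to 50.6%, median 30.4% for Gm28437 beside mt-Co3, 19.3% to 42.7%, median 29.3% for Gm10925 beside mt-Atp6 and 14.9% to 45.7%, median 29.1% for Gm10222 beside mt-Nd4l. For the longer genes the copy was a minor part: Gm28439, identical to 876 bases of mt-Nd4, held 0.752% to 2.70%, median 1.61%, and Gm29216 held 0.272% to 0.973%, median 0.510% beside mt-Co1. The values of mt-Nd3, mt-Nd4l, mt-Co2, mt-Co3 and mt-Atp6 are therefore uncertain, and in a fit with the copies' reads added to these genes no member was called in any comparison. Whether counting used strand is not given either. mt-Nd6 is the only messenger RNA gene of the other strand, and mt-Nd5 ends 14 bases inside it on the opposite strand, so reads of mt-Nd6 and of RNA transcribed across it from the opposite strand cannot be told apart. Its FPKM was 0.908 to 2.25 times that of mt-Nd5, with a median of 1.03.

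**Figure D2:**
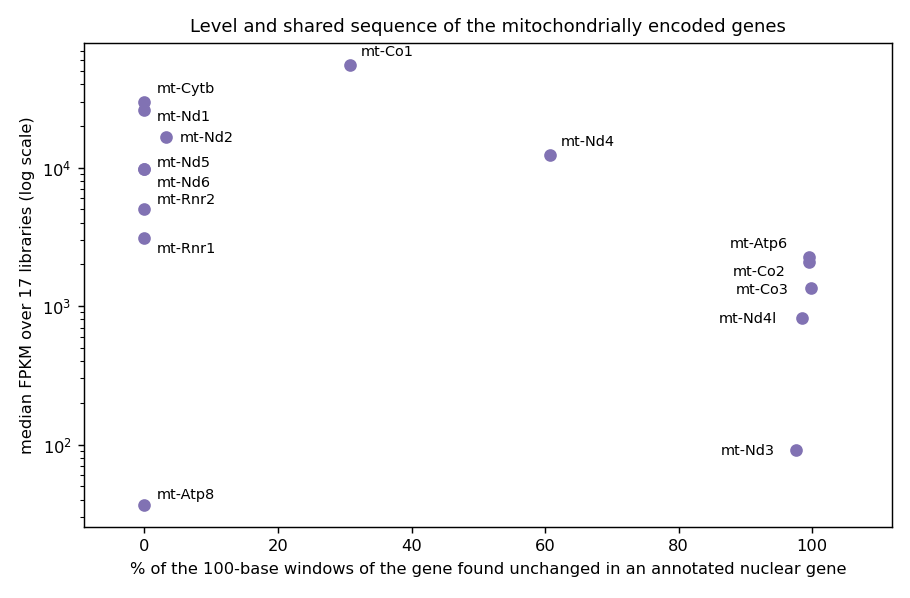
Median FPKM over 17 libraries (log axis) of each mitochondrially encoded gene against the percent of its 100-base windows found unchanged in an annotated nuclear gene. The 5 genes with more than 90% of windows shared lie between 91.3 and 2245 FPKM, and of the 7 genes with no shared window all but mt-Atp8 lie at 3093 FPKM or above.

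As a share of all reads, the members were not set apart by group. The 15 genes took 26.2, 22.1, 26.2, 30.8 and 16.9% of the assigned reads in control 1 to 5, 18.2%, 23.2% and 29.7% (lowest, median, highest) in tumour and 18.7%, 19.9% and 46.3% in tumour_swim. The group means were 24.4 ± 5.23 (SD, n = 5), 23.4 ± 4.56 (SD, n = 6) and 24.4 ± 10.8 (SD, n = 6), so they differed by less than the spread between libraries. Tumour_swim 1 set both the high value and the wide spread of its group, whose other 5 libraries had 19.98 ± 1.495% and lay inside the range of control and of tumour. In heart tissue as a whole, fewer cells of a type and less RNA per cell cannot be told apart. The ribosomal RNAs made up a small and differing part of these reads: 5.74, 6.42, 6.95, 4.88 and 7.57% in control 1 to 5, 3.70%, 4.35% and 5.55% in tumour, and 3.90%, 4.59% and 5.87% in tumour_swim. The highest 3 shares were those of control 5, control 3 and control 2, while control 4 lay among the tumour libraries. In tumour_swim 1, the library with by far the most mitochondrial reads, the ribosomal part was 5.47%, inside the range of the other libraries. The level of mt-Rnr1 was 0.422 to 0.917 times that of mt-Rnr2, and the 2 highest ratios were those of control 4 and tumour_swim 1. These sums and ratios were chosen as summaries of the members and carry no test.

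**Figure D3:**
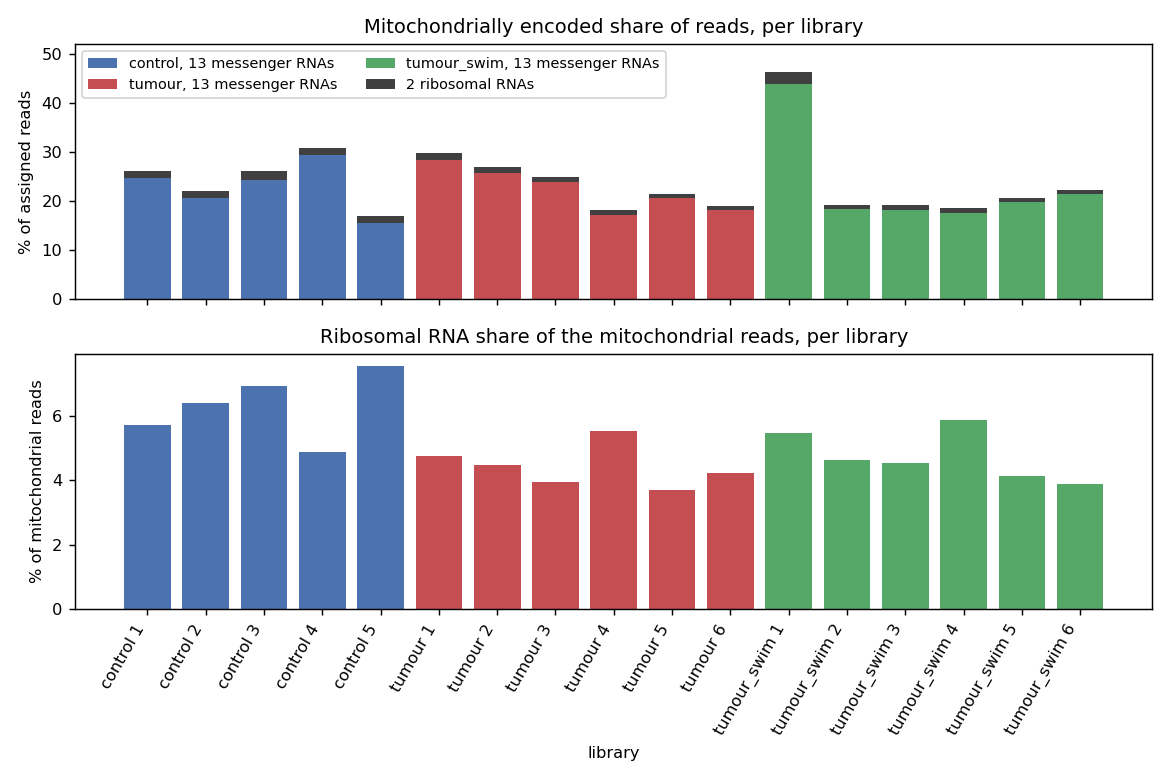
Percent of assigned reads on the 13 messenger and 2 ribosomal RNAs (upper plot) and the ribosomal RNA percent of the mitochondrial reads (lower plot), with each bar a library, colour for group and dark grey for ribosomal RNA. Tumour_swim 1 reaches 46.3% in the upper plot, and in the lower plot 3 of the 5 control bars are above all tumour and tumour_swim bars.

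Within the mitochondrial messenger RNAs the mix was steady in most libraries and shifted in 4. mt-Co1, mt-Cytb and mt-Nd1 together made up 79.5, 68.9, 68.1, 81.0 and 76.7% of the messenger reads in control 1 to 5, 66.8%, 68.6% and 71.5% in tumour and 68.0%, 69.4% and 75.0% in tumour_swim. mt-Nd2, mt-Nd4 and mt-Nd5 together made up 17.1, 26.2, 26.4, 15.6 and 17.1% in control 1 to 5, 24.5% to 27.6% in tumour and 19.96% in tumour_swim 1 against 25.4% to 27.1% in the other tumour_swim libraries. Control 1, control 4, control 5 and tumour_swim 1 thus held more of the 3 most abundant messengers and less of the next 3, while control 2 and control 3 looked like the tumour libraries. mt-Nd5, the longest of these genes at 1824 bases, showed it most plainly among the abundant members: its share was 5.26, 9.24, 8.88, 4.06 and 4.53% in control 1 to 5, 7.77% to 10.4% in tumour, 4.14% in tumour_swim 1 and 8.78 to 10.1% in the other tumour_swim libraries. Relative to mt-Nd4, which lies just before it on the same strand, its FPKM was 0.577, 0.824, 0.772, 0.461 and 0.567 in control 1 to 5, 0.722 to 0.922 in tumour, 0.416 in tumour_swim 1 and 0.846 to 0.944 in the rest. 3 of the 4 shifted libraries had the 3 lowest length correlations, while that of control 5 was -0.03. Control 2 and control 3, whose mix looked like that of the tumour libraries, had the highest. The part of the tilt in the mix of messengers was not tested.

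**Figure D4:**
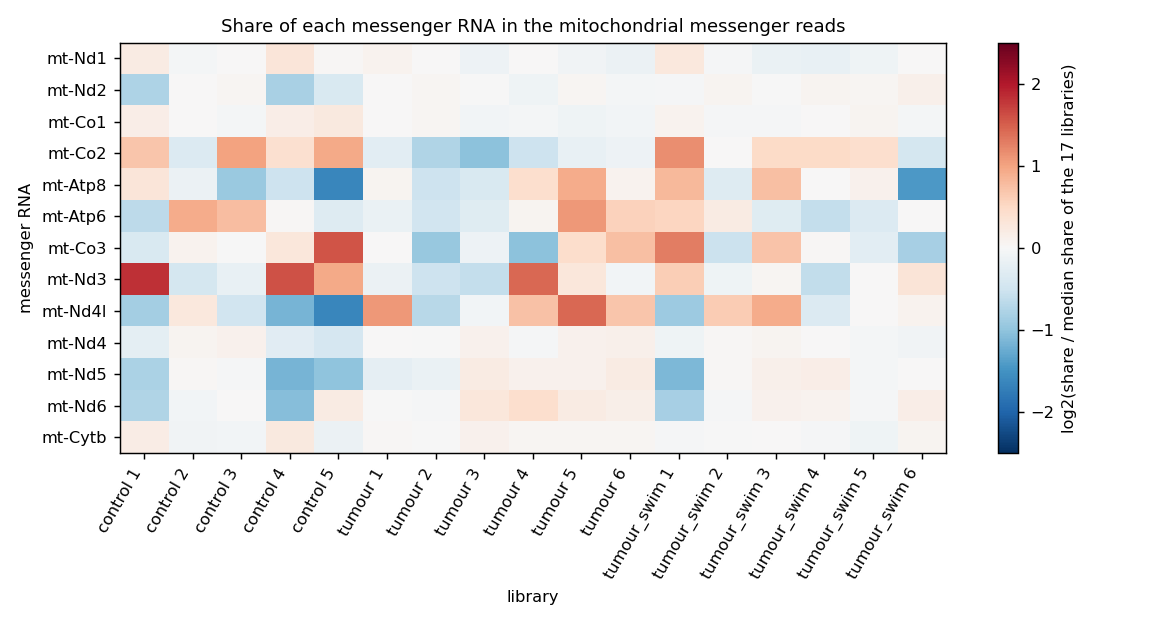
Share of each messenger RNA in the mitochondrial messenger reads of a library, as log2 of the share over the median share of the 17 libraries (colour; red above, blue below), with libraries in columns. mt-Nd1, mt-Co1 and mt-Cytb vary little beside the others, mt-Nd2, mt-Nd4 and mt-Nd5 are low in control 1, control 4 and control 5, and mt-Atp8, mt-Nd3, mt-Nd4l, mt-Co2, mt-Co3 and mt-Atp6 vary most from library to library.

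Between tumour and control, mt-Nd4l was the only member to pass the test, and it was higher with the tumour. The test was limma's moderated test on log2(FPKM + 1) over 13709 genes, with Benjamini-Hochberg adjustment at 0.05. With all 17 libraries fitted, 1 of the 15 members was called, higher in tumour, where 8.47% of all genes tested were called, 5.14% higher and 3.33% lower. No member had groups free of overlap, as 10.4% of all genes did. By their log2 fold changes, 6 members lay above 0 and 9 below, with a median of -0.05 against 0.14 over all genes.

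mt-Nd4l encodes a small membrane subunit of complex I. Its level was 492, 895, 633, 473 and 183 FPKM in control 1 to 5, and its lowest, median and highest values were 574, 1048 and 2172 FPKM in tumour and 499.9, 830.4 and 1254 FPKM in tumour_swim. 4 of the 6 tumour libraries lay above every control library and all 6 above the control median, and the groups overlapped. The log2 fold change of tumour against control was 1.27 (SE 0.38, adjusted p = 0.0475) with limma, and its 95% interval was 0.45 to 2.09. With the reads of Gm10222 added it was 1.02 (SE 0.32, adjusted p = 0.0561). Gm10222 itself, whose level was 155 to 387 FPKM in control and 182 to 465 in tumour, was not called. The call rested on single libraries: it was kept when control 2, control 3, tumour 2 or tumour_swim 1 was left out and lost with any of the other 13 left out, with limma adjusted p between 0.0237 and 0.115 and the smallest log2 fold change, 0.93, without control 5. It was also lost in a fit of these 2 groups alone (adjusted p = 0.0540), with libraries weighted (log2 fold change 1.18, adjusted p = 0.0881) and without control 1, control 4 and tumour_swim 1, where the log2 fold change was 1.29 (adjusted p = 0.0854). mt-Nd4, which mt-Nd4l overlaps on the same strand, had a log2 fold change of 0.18 with all libraries (SE 0.24, limma adjusted p = 0.622). The part of read assignment in the difference between these neighbours was not tested.

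mt-Co2, the cytochrome c oxidase subunit that takes electrons from cytochrome c (chrM:7013-7696, plus strand), did not pass the threshold with all 17 libraries and passed, lower in tumour, in some other fits. Its level was 3519, 1453, 4327, 3441 and 2679 FPKM in control 1 to 5, 1043, 1414 and 2089 FPKM in tumour and 1405, 2217 and 8595 FPKM in tumour_swim. All 6 tumour libraries lay below the control median and 3 below every control library, while control 2 lay within the tumour range. The log2 fold change was -1.05 (SE 0.38, adjusted p = 0.0883) in the fit of all 17 libraries, past the threshold neither there nor with copies added (log2 fold change -0.99, SE 0.37, adjusted p = 0.09997). Without tumour_swim 1, which is in neither group but widens the common estimate of the spread, it was -1.05 (SE 0.25, adjusted p = 0.00796) and passed; 26.6% of all genes were then called, 19.2% higher and 7.43% lower. It also passed when only tumour and control were fitted (adjusted p = 0.0244), with libraries weighted (0.0224) and without control 2 (0.0367), and without control 1, control 4 and tumour_swim 1 it did not (log2 fold change -0.87, adjusted p = 0.0624). Gm28661, its copy, had 1001 to 3412 FPKM in control and 713 to 1627 in tumour. Its log2 fold change without tumour_swim 1 was -0.83 (limma adjusted p = 0.0372).

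Neither ribosomal RNA passed the threshold between tumour and control with all 17 libraries, and mt-Rnr2 passed, lower in tumour, without tumour_swim 1 and with libraries weighted (adjusted p = 0.0349). mt-Rnr2 (chrM:1094-2675, plus strand) had 6572, 7063, 8813, 6086 and 5723 FPKM in control 1 to 5, 3597, 4536 and 6165 FPKM in tumour and 3913, 4253 and 10380 FPKM in tumour_swim. 5 of the 6 tumour libraries lay below every control library, and tumour 1 lay above 2 control libraries. The log2 fold change of tumour against control was -0.55 (SE 0.23, adjusted p = 0.138) with all 17 libraries and -0.55 (SE 0.16, adjusted p = 0.0184) without tumour_swim 1. mt-Rnr1 (chrM:70-1024, plus strand) had 4751, 3107, 4293, 5583 and 3811 FPKM in control 1 to 5, 2066, 2882 and 4475 FPKM in tumour and 1795, 2536 and 9046 FPKM in tumour_swim. 4 of the 6 tumour libraries lay below every control library. Its log2 fold change was -0.55 (SE 0.33, adjusted p = 0.274) with all libraries and -0.55 (SE 0.21, adjusted p = 0.0569) without tumour_swim 1, so it was not called in either. Neither gene shares a 100-base window with an annotated nuclear gene. Without control 1, control 4 and tumour_swim 1, mt-Rnr2 was the only member called in this comparison (log2 fold change -0.62, SE 0.18, adjusted p = 0.0372), where 12.5% of all genes were.

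mt-Nd6 and mt-Nd5, complex I subunits encoded beside each other on opposite strands, did not pass with all 17 libraries and passed in some other fits. mt-Nd6 (chrM:13552-14070, minus strand) had 7011, 9478, 11695, 6725 and 8675 FPKM in control 1 to 5, 9786, 11800 and 13955 FPKM in tumour and 8638, 9337 and 11739.8 FPKM in tumour_swim. All 6 tumour libraries lay above the control median and 3 above every control library. The log2 fold change of mt-Nd6 was 0.48 (SE 0.17, adjusted p = 0.0792) with all libraries, and 0.48 (SE 0.16, adjusted p = 0.0339), past the threshold, without tumour_swim 1. mt-Nd5 (chrM:11742-13565, plus strand) had 7069, 10439, 11762, 6486 and 3847 FPKM in control 1 to 5, 9130.3, 11119 and 13549.8 FPKM in tumour and 9254, 9740.2 and 10580.1 FPKM in tumour_swim. Control 1, control 4 and control 5, the controls whose messenger mix was shifted, lay below every tumour library, and control 2 and control 3 lay inside the tumour range. Its log2 fold change was 0.60 (SE 0.22, adjusted p = 0.0970) with all libraries and 0.60 (SE 0.22, adjusted p = 0.0529) without tumour_swim 1; it passed when control 2 (adjusted p = 0.0477) or control 3 (adjusted p = 0.0315) was left out and in no other fit. mt-Nd6 also passed without control 3 (adjusted p = 0.0311), and without control 1, control 4 and tumour_swim 1 it did not (log2 fold change 0.27, adjusted p = 0.269).

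None of the other 9 members was called between tumour and control in any fit that was run. The most abundant messenger RNAs did not separate: mt-Co1 had 49481 to 87634 FPKM in control and 44534 to 75516 in tumour, with a log2 fold change of -0.18 and a 95% interval of -0.71 to 0.35. mt-Cytb had 19645 to 47983 FPKM in control and 24647 to 39976 in tumour (log2 fold change -0.01, 95% interval -0.56 to 0.53; the parentheses that follow give the same quantities), and mt-Nd1 had 20941 to 47642 FPKM in control and 21622 to 39397 in tumour (-0.18, -0.80 to 0.45). Their groups overlapped over most of their range. Of the other complex I genes, mt-Nd2 had 9794 to 20474 FPKM in control and 13069.7 to 23268 in tumour (0.35, -0.18 to 0.87) and mt-Nd4 had 6786 to 15227 FPKM in control and 9899 to 16604 in tumour (0.18, -0.33 to 0.69). mt-Nd3, a short subunit, had 64.7 to 374 FPKM in control and 67.3 to 198 in tumour (-0.71, -1.73 to 0.31). Its highest values were those of control 1 and control 4, at 372 and 374 FPKM, and without these libraries and tumour_swim 1 its log2 fold change was 0.10; with the reads of Gm28438 added to it in all libraries it was -0.0071 (SE 0.36, limma adjusted p = 0.991). mt-Co3, the remaining cytochrome c oxidase subunit, had 1142 to 2823 FPKM in control and 510.0 to 1865 in tumour (-0.49, -1.52 to 0.54). Of the ATP synthase genes, mt-Atp6 had 1332 to 4436 FPKM in control and 1939 to 4706 in tumour (-0.05, -0.91 to 0.81) and mt-Atp8 had 9.46 to 56.8 FPKM in control and 34.0 to 73.5 in tumour (0.63, -0.37 to 1.63).

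**Figure D5:**
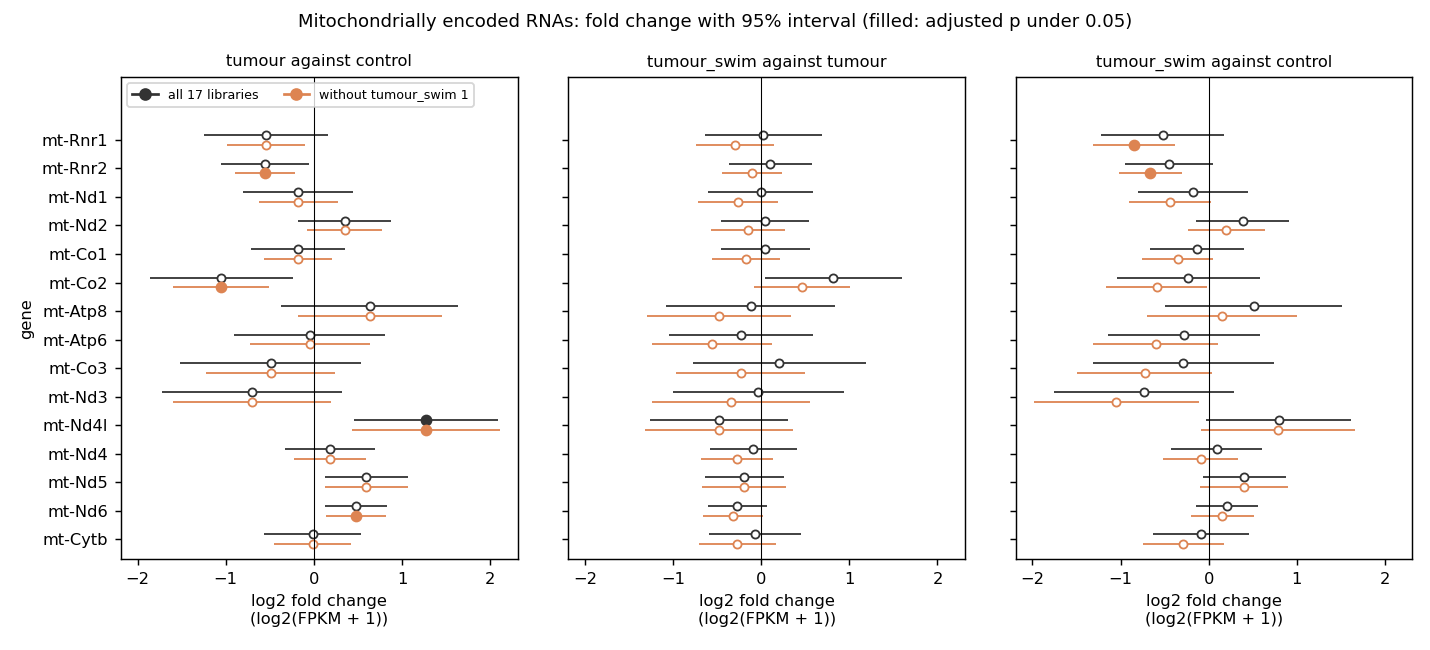
log2 fold change of each mitochondrially encoded RNA with its 95% interval in the 3 comparisons, with all 17 libraries (black) and without tumour_swim 1 (orange); filled points have an adjusted p under 0.05. With all libraries only mt-Nd4l in tumour against control is filled, and without tumour_swim 1 mt-Rnr2, mt-Co2, mt-Nd4l and mt-Nd6 are filled there and mt-Rnr1 and mt-Rnr2 in tumour_swim against control.

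Between tumour_swim and tumour no member passed the threshold. The smallest limma adjusted p over the 15 was 0.957, 1 member, mt-Co2, had an unadjusted p under 0.05, and 0% of all genes were called. Without tumour_swim 1 the smallest adjusted p was 0.912, and the count of called members and of all genes was again 0. Groups overlapped for every member, with and without tumour_swim 1, where 0.372% and 1.14% of all genes did not overlap. With all libraries the log2 fold change of mt-Co2 was the one farthest from 0: 4 of the 6 tumour_swim libraries lay above every tumour library, and it was 0.82 (SE 0.36, adjusted p = 0.957) with a 95% interval of 0.05 to 1.59. Without tumour_swim 1, whose 8595 FPKM was far above the 1405 to 2348 of the others, it was 0.46 (SE 0.25, adjusted p = 0.957), and mt-Atp6, mt-Nd4l and mt-Atp8 lay farther from 0. mt-Nd6 lay below every tumour library in 4 of the 6 tumour_swim libraries, with a log2 fold change of -0.27 (SE 0.16, adjusted p = 0.957) and -0.32 without tumour_swim 1. mt-Nd4l, called with the tumour, had -0.48 (SE 0.36, adjusted p = 0.957), and 5 of 6 tumour_swim libraries lay below its tumour median. For the ribosomal RNAs the log2 fold changes were 0.02 for mt-Rnr1 and 0.10 for mt-Rnr2, and -0.30 and -0.11 without tumour_swim 1. For mt-Co1, mt-Cytb and mt-Nd1 they were 0.04 (95% interval -0.46 to 0.55), -0.07 (-0.60 to 0.45) and -0.0034 (-0.60 to 0.59), and without tumour_swim 1 they were -0.17, -0.27 and -0.26. mt-Nd2, mt-Nd4 and mt-Nd5 had 0.04, -0.09 and -0.19, and -0.15, -0.27 and -0.19 without tumour_swim 1. For mt-Nd5 all 6 tumour_swim libraries lay below the tumour median. The wide intervals of mt-Nd3 (-1.004 to 0.94), mt-Co3 (-0.78 to 1.19), mt-Atp6 (-1.05 to 0.59) and mt-Atp8 (-1.08 to 0.83) all spanned 0; their log2 fold changes were -0.03, 0.21, -0.23 and -0.12 with all libraries and -0.34, -0.23, -0.56 and -0.48 without tumour_swim 1. With all libraries 6 members lay above 0 and 9 below, and their median log2 fold change was -0.03 against -0.08 over all genes. Without tumour_swim 1, 1 lay above 0 and 14 below, and the median was -0.27 against 0.038 over all genes, with none of these differences past the threshold.

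Tumour_swim against control gave no called member with all 17 libraries, and both ribosomal RNAs were called lower once tumour_swim 1 was left out. With all libraries the smallest limma adjusted p was 0.411, for mt-Nd4l (log2 fold change 0.79), no member had an unadjusted p under 0.05, and 0.905% of all genes were called. No member had groups free of overlap, as 1.58% of all genes did. Without tumour_swim 1, 16% of all genes were called and 2.65% called lower. mt-Rnr1 then ranged over 1795 to 3093 FPKM against 3107 to 5583 in control, and its log2 fold change was -0.84 (SE 0.21, adjusted p = 0.0199). The groups did not overlap, by the narrow margin between 3093 FPKM in tumour_swim 4 and 3107 in control 2. mt-Rnr2 ranged over 3913 to 5011 FPKM against 5723 to 8813, and its log2 fold change was -0.66 (SE 0.16, adjusted p = 0.0186). These 2 were the only members whose groups did not overlap, and 10.6% of all genes did not overlap in this comparison, 1.23% being lower. With tumour_swim 1 kept, its 9046 and 10380 FPKM were the highest of all libraries, and the log2 fold changes were -0.52 and -0.45. Without control 1, control 4 and tumour_swim 1 neither was called, with log2 fold changes of -0.65 for mt-Rnr1 (adjusted p = 0.146) and -0.73 for mt-Rnr2 (adjusted p = 0.0536), where 2.55% of all genes were called. The next members without tumour_swim 1 were mt-Nd3 (log2 fold change -1.05, SE 0.43, adjusted p = 0.0857) and mt-Co2 (log2 fold change -0.59, SE 0.26, adjusted p = 0.105), both sharing sequence with copies, and these did not pass. For the abundant messengers mt-Co1, mt-Cytb and mt-Nd1, the log2 fold changes were -0.13, -0.09 and -0.18 with all libraries and -0.35, -0.29 and -0.44 without tumour_swim 1. mt-Nd2, mt-Nd4, mt-Nd5 and mt-Nd6 had 0.39, 0.09, 0.41 and 0.21, and mt-Atp6, mt-Atp8 and mt-Co3 had -0.28, 0.51 and -0.29 with all libraries. Without tumour_swim 1 the first 4 had 0.20, -0.09, 0.40 and 0.16 and the last 3 had -0.60, 0.15 and -0.73. The median over the members was -0.13 against 0.06 over all genes with all libraries, and -0.35 against 0.17 without tumour_swim 1. This comparison and that of tumour with control share the same 5 control libraries, so the ribosomal RNA values in both rest on the same control levels.

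Nuclear genes for the machinery that copies, processes and translates these RNAs were described from 6 lists of 95 genes, of which 92 were tested. With all libraries, 6 of the 92 were called between tumour and control, 1 higher and 5 lower, where 8.47% of all genes tested were called, 5.14% higher and 3.33% lower, and the median log2 fold change was -0.10 against 0.14 over all genes. In mitochondrial DNA maintenance 1 of 11 tested genes was called: Tk2, the mitochondrial thymidine kinase that supplies building blocks for mitochondrial DNA, had 2.51, 2.76 and 3.80 FPKM in control, 4.11, 4.64 and 5.09 FPKM in tumour and 2.90, 3.50 and 4.44 FPKM in tumour_swim (lowest, median, highest), and rose in tumour with a log2 fold change of 0.51 (SE 0.12, adjusted p = 0.0144). All tumour libraries lay above all control libraries. In translation, Tufm and Tsfm, the mitochondrial elongation factors Tu and Ts, were called lower. Tsfm had 8.98, 14.3 and 16.1 FPKM in control and 6.06, 6.95 and 10.5 FPKM in tumour (log2 fold change -0.73, SE 0.16, adjusted p = 0.0121), and only tumour 5 reached into the control range. Tufm had 84.1, 90.5 and 115 FPKM in control and 57.1, 64.3 and 85.4 FPKM in tumour (log2 fold change -0.52, SE 0.16, adjusted p = 0.0475). Qrsl1, a subunit of the enzyme that completes glutaminyl transfer RNA in mitochondria, was the 1 of 20 genes called in the list of aminoacyl-tRNA synthetases, with 7.34, 8.38 and 9.25 FPKM in control and 4.14, 4.74 and 6.02 FPKM in tumour (log2 fold change -0.70, SE 0.15, adjusted p = 0.00855). In ribosomal RNA modification and ribosome assembly, 1 of 17 tested genes was called: Mrm3, a methyltransferase of the large ribosomal RNA, had 6.74, 11.3 and 14.4 FPKM in control and 4.81, 6.23 and 7.49 FPKM in tumour (log2 fold change -0.65, SE 0.17, adjusted p = 0.0304). In RNA processing and turnover, 1 of 23 was called: Supv3l1, the helicase of the mitochondrial RNA degrading complex, had 10.5, 11.4 and 12.3 FPKM in control and 7.58, 8.36 and 9.45 FPKM in tumour (log2 fold change -0.40, SE 0.12, adjusted p = 0.0448). None of the 9 transcription genes was called, the smallest p being that of the elongation factor Tefm, with a log2 fold change of -0.49 (SE 0.15, adjusted p = 0.05005). Qrsl1 and Tsfm kept their call under every alternative run, and Tk2 under every alternative that tested it except median-of-ratios scaling. The other calls were lost when 1 of several libraries was left out: Mrm3 with 7 of the 17, Supv3l1 and Tufm with 13 each. Without tumour_swim 1, 25 of the machinery genes were called, 4 higher and 21 lower. That fit called 26.6% of all genes, 19.2% higher and 7.43% lower.

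Between tumour_swim and tumour, 0 of the 92 machinery genes were called by limma, with or without tumour_swim 1, and 3 and 7 of them had an unadjusted p under 0.05 with and without it. The genes with the smallest p in their lists were Tk2 (-0.29), Trnt1 (-0.40), Tsfm (0.21), Ears2 (0.17), Mterf1a (-0.19) and Gtpbp10 (-0.24), each given with its log2 fold change and each at a limma adjusted p of 0.957. Trnt1 adds the CCA end to transfer RNAs, Ears2 charges glutamyl transfer RNA, and Mterf1a belongs to the transcription termination factors. Between tumour_swim and control none was called by limma with all libraries, and 17 had an unadjusted p under 0.05. The share of all genes with an unadjusted p under 0.05 is not given here. The counts of 3, 7 and 17 are therefore not read as results about the machinery. Within each list, the smallest p belonged to Qrsl1 (-0.54), Mterf2 (-0.59), Mtrf1l (-0.52), Tfb1m (-0.32), Fastkd2 (-0.32) and Ssbp1 (-0.36), with adjusted p between 0.0942 and 0.320. Without tumour_swim 1, 7 were called in that comparison, 1 higher and 6 lower, where 16% of all genes were called, 2.65% lower.

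Markers of several cell types of heart tissue also differed between the groups, and their part in the values above was not tested. The counts of markers called stand beside 8.47% of all genes called in tumour against control, 5.14% higher and 3.33% lower, and 0.905% in tumour_swim against control. Summed over 8 cardiomyocyte markers the level was 13454 to 20446 FPKM in control, 11654 to 13755 in tumour and 12011 to 15098 in tumour_swim, and 2 of the 8 were called lower in tumour than in control. Control 1, control 4 and control 5, the controls whose messenger mix was shifted, had the 3 highest sums. Tumour_swim 1, whose mix was shifted as well, had 13080 FPKM, below every control library and inside the range of the other tumour_swim libraries. Red cell transcripts, from a cell that lacks mitochondria when mature, summed to 869 to 2265 FPKM in control, 2421 to 6556 in tumour and 2738 to 7289.6 in tumour_swim, with 3 of 5 called higher in both comparisons with control. Smooth muscle markers summed to 148 to 333 FPKM in control, 33.3 to 69.6 in tumour and 41.7 to 213 in tumour_swim and fibroblast markers to 157 to 223 FPKM in control, 245 to 473 in tumour and 122 to 364 in tumour_swim; 1 of 3 tested smooth muscle markers was called lower and 2 of 5 fibroblast markers higher in tumour against control. Leukocyte markers summed to 148 to 322 FPKM in control, 231 to 462 in tumour and 131 to 346 in tumour_swim, with 2 of 4 tested called higher in tumour against control. Endothelial markers summed to 60.8 to 182 FPKM in control, 107 to 172 in tumour and 34.8 to 160.5 in tumour_swim. Skeletal muscle markers summed to 1.15 to 2.53 FPKM in control, 1.31 to 2.94 in tumour and 0.876 to 2.13 in tumour_swim, brown fat markers to 14.0 to 26.2 FPKM in control, 12.97 to 18.0 in tumour and 14.6 to 33.5 in tumour_swim, and lung and liver markers to 0.164 to 5.002 FPKM in control, 0.0433 to 2.73 in tumour and 0.917 to 8.30 in tumour_swim; none of these was called.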

How the data were processed

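RNA of 17 mouse heart samples was sequenced, and the authors deposited 1 table of 28640 genes with a column per sample. Per the labels' protocols, TRIzol RNA was made into libraries with a NEBNext Ultra RNA kit. Build mm10 and the tools fastp, FastQC and bcl2fastq are listed in the submitters' processing notes. Not given in the sources used here are the aligner, the counting, strandedness, the annotation and any selection of polyadenylated RNA or depletion of ribosomal RNA. The deposited values are FPKM made by the authors. The unit was inferred: times the GENCODE M21 exon length, the values sum to 99.0% to 99.7% of the total that FPKM gives, and 98.6% to 99.0% of those below 20 reads are within 0.1 of a whole number. These steps gave the depth and the read numbers; no count test was run on them. GENCODE M21 held 28260 of the IDs (98.7%) and lacked 380. Libraries of a group differed beyond sampling noise (lowest chi-square per degree of freedom 10.6 over 40 pairs).

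The 13709 genes whose mean reached 0.5 FPKM in any group were tested on log2(FPKM + 1) by two-sided limma-trend (limma 3.58.1, R 4.3.3), in 1 fit of all 17 libraries by group with 14 residual degrees of freedom and Benjamini-Hochberg adjustment at 0.05. On this scale fold changes of lowly expressed genes are understated. All 15 members passed the floor. Shares, windows and plots were made in Python 3.11.15 with numpy 2.4.6, pandas 2.3.3, scipy 1.17.1 and matplotlib 3.10.9. All members were named; of each machinery list, up to 3 called genes with the smallest p, or else the gene with the smallest p. The fit was tested on simulated data. Members, lists and alternatives were chosen with earlier results of these data known. The alternatives changed the scaling, the pseudocount, the floor, the libraries, the fitted groups, weights and blocks; adding the copies' reads, and scaling over reads outside mitochondrial genes without tumour_swim 1, were chosen after seeing the data.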

Additional observations from a re-analysis of the deposited data

Results flagged for a closer look

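For 99 groups of 5 or 6 libraries the highest and the lowest value were compared with the rest of the group by Dixon's ratio. The cut-off is set so that about 1 in 20 independent groups would pass by chance. These groups share libraries and are not independent. The mitochondrial share of tumour_swim 1 was also known beforehand, so the counts only describe the values. In all, 19 values stood apart, of which 14 belonged to tumour_swim 1. The mitochondrial percent of its reads was 46.3. Its levels stood apart for 12 of the 15 members: mt-Rnr1 (9045.5 FPKM), mt-Rnr2 (10380), mt-Nd1 (68653), mt-Nd2 (34717), mt-Co1 (123767), mt-Co2 (8595), mt-Atp8 (144), mt-Atp6 (6745), mt-Co3 (6386), mt-Nd3 (284), mt-Nd4 (23618) and mt-Cytb (59429). The members that did not stand apart in it were mt-Nd4l, mt-Nd5 and mt-Nd6. Trnt1, which finishes the end of transfer RNAs, was the remaining value of tumour_swim 1, and the only one that stood low, at 4.20 FPKM.

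Outside that library, mt-Atp6 in tumour 5 (4706 FPKM) and mt-Nd3 in tumour 4 (198 FPKM) stood above the rest of the tumour group. Among the machinery genes, Ears2 in control 5 (4.21 FPKM), Tfb1m in tumour 1 (1.80 FPKM) and Tsfm in tumour 5 (10.5 FPKM) stood apart from their groups.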

How the results depend on the processing

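With all libraries 1 mitochondrially encoded gene was called between tumour and control (mt-Nd4l). The count was 0 with median-of-ratios scaling, with scaling over reads outside mitochondrial genes, with a pseudocount of 0.1, with no filter, with the replicate block and with the copies' reads added. It was 2 with array weights (mt-Rnr2 and mt-Co2) and 3 with scaling over reads outside mitochondrial genes without tumour_swim 1, and it ranged from 0 to 4 as each library was left out. It was again 1, but a different gene, in the fit of 2 groups (mt-Co2) and without control 1, control 4 and tumour_swim 1 (mt-Rnr2). Against control, tumour_swim had 0 members called, 1 with array weights, 2 with scaling over reads outside mitochondrial genes without tumour_swim 1, and 0 to 2 as each library was left out. Between tumour_swim and tumour the count was 0 under every alternative. The machinery genes called between tumour and control, 6 with all libraries, were 20 (all lower) with median-of-ratios scaling, 14 with scaling over reads outside mitochondrial genes and 27 with that scaling without tumour_swim 1. They were 12 in the fit of 2 groups, 10 with array weights, 10 without control 1, control 4 and tumour_swim 1, and 3 to 25 as each library was left out. Between tumour_swim and control the machinery count of 0 became 5, 2 and 13 with the 3 scalings in the same order and ranged from 0 to 7. The share of all genes called moved between fits as well. For tumour against control it was 8.47% with all libraries, 26.6% without tumour_swim 1 and 12.5% without control 1, control 4 and tumour_swim 1. For tumour_swim against control it was 0.905%, 16% and 2.55% in the same fits. The shares in the other fits, such as that with median-of-ratios scaling, are not given here. The counts are therefore not read as results about the members or the machinery, and their cause was not tested. Median-of-ratios scaling shifted all genes, whose median log2 fold change went from 0.14 to -0.02 for tumour against control.

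Taken as shares of summed FPKM instead of reads, the members made up 41.7% in control, 44.4% in tumour and 43.0% in tumour_swim. In the same order, mt-Co1 then made up 35.9%, 32.1% and 33.5% of the messenger RNA and mt-Nd5 4.33%, 6.30% and 5.80%. Long genes count for less per read on this measure.

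Some fold changes, none of them called, changed sign; that of mt-Nd3 in tumour against control, -0.71 with all libraries, was the farthest from 0 among them. For tumour against control without control 1, control 4 and tumour_swim 1, the log2 fold change was 0.10 for mt-Nd1, 0.037 for mt-Co1, 0.10 for mt-Nd3 and 0.28 for mt-Cytb. It was -0.033 for mt-Nd4 with median-of-ratios scaling, and for mt-Cytb 0.0060 with the replicate block and 0.11 with array weights. For tumour_swim against tumour the values with array weights, without the 3 libraries, and with scaling over reads outside mitochondrial genes without tumour_swim 1 were -0.24, -0.30 and -0.36 for mt-Rnr1, -0.089, -0.11 and -0.17 for mt-Rnr2, -0.14, -0.15 and -0.21 for mt-Nd2, -0.16, -0.17 and -0.23 for mt-Co1, and -0.14, -0.23 and -0.30 for mt-Co3. With median-of-ratios scaling they were 0.14 for mt-Nd1, 0.020 for mt-Atp8, 0.11 for mt-Nd3, 0.051 for mt-Nd4 and 0.067 for mt-Cytb. With scaling over reads outside mitochondrial genes they were 0.029 for mt-Nd1 and 0.00094 for mt-Nd3. For tumour_swim against control mt-Nd4 had -0.065 with array weights and -0.18 with scaling over reads outside mitochondrial genes without tumour_swim 1, and without the 3 libraries mt-Nd6 had -0.052 and mt-Cytb 0.013. As each library was left out, tumour against control ranged from -0.30 to 0.14 for mt-Atp6, -0.018 to 0.27 for mt-Nd4 and -0.19 to 0.13 for mt-Cytb. Tumour_swim against tumour ranged from -0.30 to 0.17 for mt-Rnr1, -0.11 to 0.19 for mt-Rnr2, -0.26 to 0.10 for mt-Nd1, -0.15 to 0.11 for mt-Nd2, -0.17 to 0.13 for mt-Co1, -0.48 to 0.16 for mt-Atp8, -0.23 to 0.39 for mt-Co3 and -0.34 to 0.17 for mt-Nd3. Tumour_swim against control ranged from -0.11 to 0.18 for mt-Nd4 and -0.29 to 0.061 for mt-Cytb.

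Groups share replicate numbers, and no pairing of samples by number was seen. Over 16 same-numbered pairs the correlation of deviations from the group means ran from -0.67 to 0.68, and 8 were over 0.1. Of the 17 libraries, 3 correlated best with a library of their own number. Libraries of different numbers also correlated, such as control 4 with tumour_swim 1 at 0.84, so these values cannot exclude a pairing. The replicate block called 0 members and 4 machinery genes between tumour and control, and the share of all genes that it called is not given here. For single genes, leaving out a library gave 985 values with the same direction and call, 46 that lost a call, 16 that gained one and 41 with the other sign; the other alternatives gave 626, 16, 21 and 33.

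Limits: 5 or 6 libraries a group leave wide 95% intervals, such as -0.71 to 0.35 on the log2 scale for mt-Co1 in tumour against control. The 5 genes shared with nuclear copies depend on how reads were assigned, and strand, selection of polyadenylated RNA and depletion of ribosomal RNA, which bear on mt-Nd6 and the ribosomal RNAs, are among the steps not given in the sources used here.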
